A study of Mus musculus with 30 samples.

Results

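Microglia from mice with a labelled Atg7 knockout (KO) were compared between day 35 of experimental autoimmune encephalomyelitis (EAE) and the naive state. The members are the libraries whose titles name day 35 EAE or naive together with the Atg7 KO, which gave 4 day 35 EAE KO libraries and 4 naive KO libraries, 8 of the 30 libraries in the series. Both groups are young C57BL/6 mice of the genotype Atg7fl/fl Cx3cr1CreERT, in which tamoxifen switches on a Cre recombinase made from the Cx3cr1 locus. Tamoxifen was given as 3 doses of 4 mg, each 48 h after the one before, and a minimum of 18 days passed before immunization. The day 35 mice were immunized with residues 1 to 125 of recombinant mouse myelin oligodendrocyte glycoprotein and received pertussis toxin, and the naive mice are those labelled as without EAE. Wild-type (WT) mice at day 35 and naive (4 libraries each) carry Atg7wt/wt Cx3cr1CreERT2 and the same tamoxifen, and 4 KO libraries from day 21 of EAE give the earlier time. Several things limit these groups as a model. Cx3cr1 is also active in myeloid cells other than microglia, the sort took live CD11b+ cells with intermediate CD45 and no Ly6G and/or eYFP, the labels describe lysates of female and male mice as pooled 1:1, and the labels do not say that the replicates come from separate mice. The p-values therefore measure a spread between libraries, which may be technical in part. For single genes that spread was estimated over all 30 libraries. These also hold naive and day 35 EAE libraries labelled old, and day 21 EAE WT libraries.

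Microglia are the resident macrophages of the brain and spinal cord, and in the healthy tissue they carry a set of surface receptors and transcription factors known as the homeostatic signature. EAE is an autoimmune attack on myelin that is driven by T cells, and microglia near lesions take up myelin debris, present antigen and release chemokines. Atg7 is the E1-like enzyme that activates the LC3 and ATG12 conjugation systems, on which autophagosome formation and LC3-associated phagocytosis depend.

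Depth was similar across the 8 libraries, with 6698954 to 9893590 counts each, and 13880 genes passed the filter on low counts. All values below are CPM, counts scaled to a common library size, and replicates 1 to 4 are given in that order. Some libraries stood apart from their group. Naive KO replicate 4 had the largest spread of log2 deviations from its group over genes (SD 0.58, against 0.29 to 0.39 in the other naive KO libraries), and day 35 KO replicates 3 and 4 had 0.48 and 0.46, against 0.27 and 0.25 in replicates 1 and 2. The EAE score was 2.75, 2.75, 3 and 2.5 in day 35 KO and 0 in every naive KO library. The RNA integrity number was 9.55 to 10 in day 35 KO and 9.3 to 10 in naive KO. The mix of female and male RNA was not even, with Xist, the RNA of the inactive X chromosome, at 600.3 to 1900 CPM in day 35 KO and 92.18 to 1426 CPM in naive KO, and summed Y-linked genes at 22.58 to 122.2 CPM in day 35 KO and 14.15 to 174.8 CPM in naive KO. The part of that mix in the results was not tested.

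The libraries bore the markers of microglia. All 8 microglia markers (such as Tmem119, P2ry12, Sall1 and Siglech) had counts in both groups, and their summed level was 17110, 16840, 17400 and 11550 CPM in day 35 KO, against 23920, 24590, 25050 and 25460 CPM in naive KO. The day 35 sums all lay below the naive sums (means 15720 ± 2790 and 24760 ± 660 CPM, SD, n = 4 each), and the exact permutation test gave p = 0.0286, the smallest that 4 against 4 allows, and 0.0613 after adjustment over 15 measures. In bulk RNA, fewer cells of a type and less RNA per cell cannot be told apart.

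Markers of other cell types also moved, and their part in the results below was not tested except where a value is given. Summed T and NK cell markers were near 0 in both groups, at 1.048 to 4.308 CPM in day 35 KO and 0.5866 to 9.65 CPM in naive KO, and granzyme A (Gzma) was at 0 in day 35 KO. Monocyte markers summed to 977.8 to 1413 CPM in day 35 KO and 33.88 to 496.9 CPM in naive KO, with no overlap, but Fn1 made up most of the day 35 sum and was the only 1 of the 11 that was called. The other 10 summed to 66.7, 57.79, 40.27 and 331.3 CPM in day 35 KO, against 233.1, 221.4, 207.3 and 26.1 CPM in naive KO, and the list's median log2 fold change was -0.51. Without Fn1 the day 35 sums were thus below the naive ones apart from the fourth replicates, which stood in the opposite order. Border macrophage markers (Mrc1, Cd163, Lyve1 and others) overlapped, at 61.82 to 122.8 CPM in day 35 KO and 36.81 to 307.5 CPM in naive KO, where replicate 4 held the low value. Astrocyte markers were higher in all day 35 KO libraries (312.5 to 495 CPM, against 153.9 to 248.3 CPM in naive KO), and so were erythroid markers (55.26 to 212.5 CPM, against 2.573 to 21.55 CPM in naive KO). Oligodendrocyte markers (155.9 to 414.2 CPM in day 35 KO, against 112.1 to 173.2 CPM in naive KO) and neuron markers (9.153 to 389.3 CPM in day 35 KO, against 11.19 to 31.68 CPM in naive KO) overlapped. Neutrophil markers ranged over 667.3 to 3862 CPM in day 35 KO and 644.4 to 3094 CPM in naive KO. Endothelial markers averaged 63.67 ± 4.26 CPM in day 35 KO and 45.14 ± 1.95 CPM in naive KO (SD, n = 4 each), with Esam and Tek at 0 in naive KO. Of the 3 endothelial markers tested, Flt1 rose by 2.86 (adjusted p = 0.000192), Pecam1 fell by 1.30 (adjusted p = 9.55e-07) and Cdh5 did not pass (-0.74, adjusted p = 0.0503), so the sum does not stand for its members. The share of counts from the mitochondrial genome was 7.981 ± 0.782% in day 35 KO and 3.385 ± 1.14% in naive KO (SD, n = 4 each; exact permutation p = 0.0286, adjusted 0.0613), again with no overlap.

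**Figure D1:**
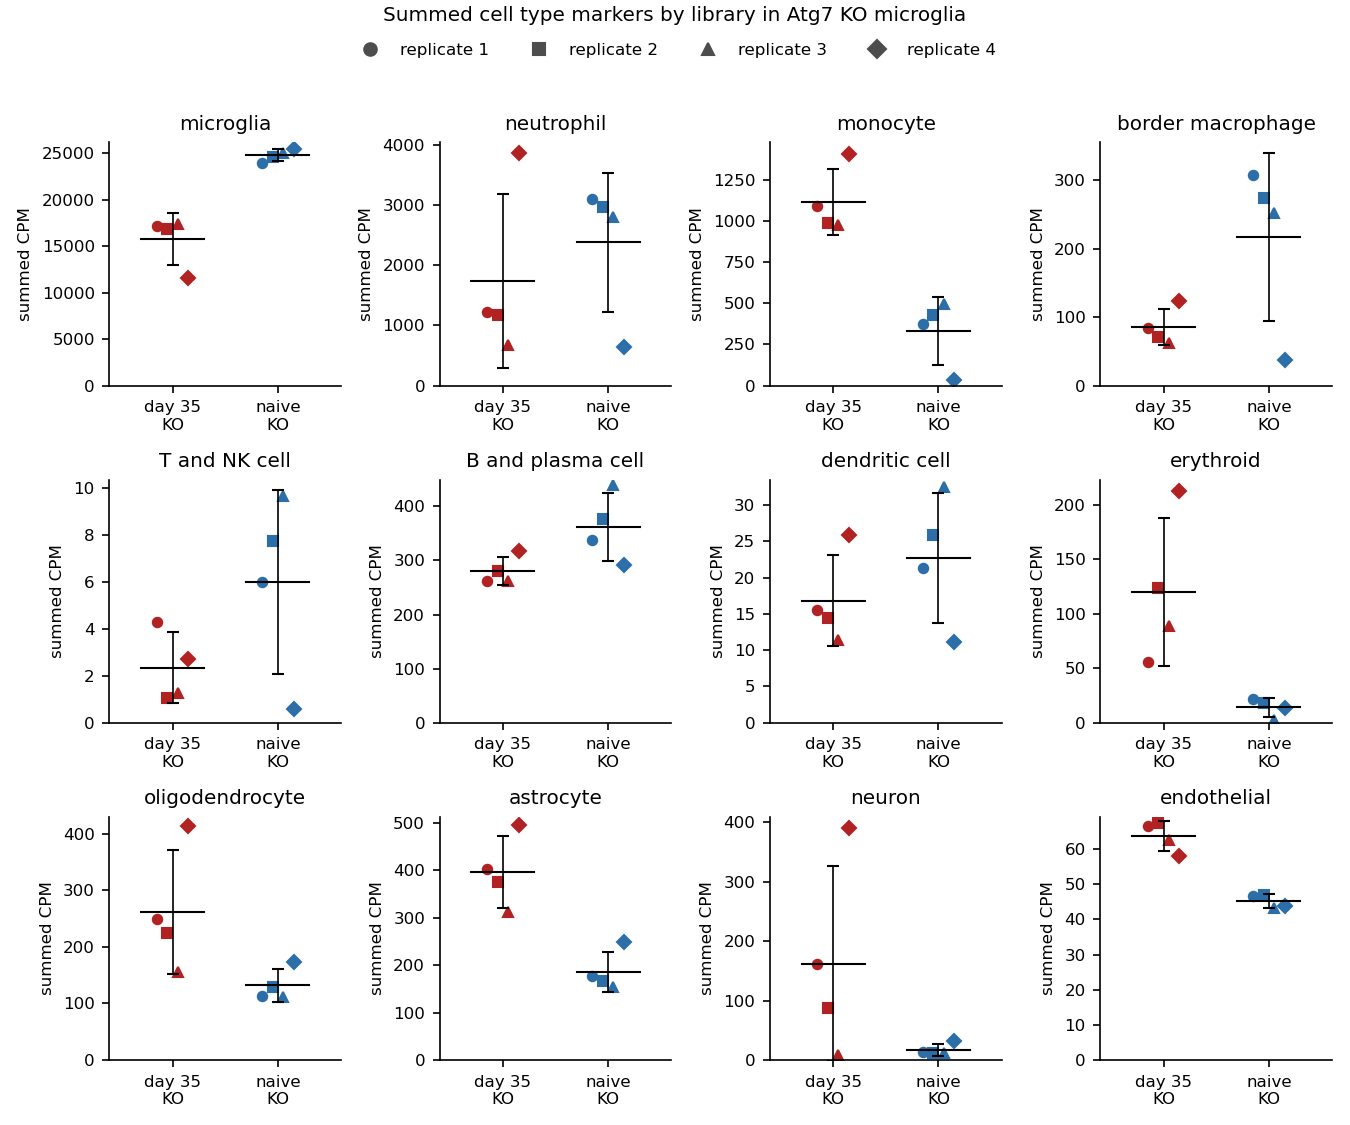
Summed CPM of 12 marker lists in each library (points, shape by replicate), day 35 EAE KO left of naive KO, with the group mean as a line and the SD as a bar. Microglia sums were at 11550 to 17400 CPM at day 35 and 23920 to 25460 CPM in naive KO, and day 35 KO replicate 4 lies apart in the microglia, neutrophil and neuron panels.

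Atg7 itself (ENSMUSG00000030314, chromosome 6, 114643097 to 114860614, GRCm38) is given as a single value for the whole gene, and the deleted part is not given in the sources used here, so its counts do not check the label. It had 33.28, 32.49, 30.27 and 33.76 CPM in day 35 KO, against 16.77, 20.69, 31.78 and 11.44 CPM in naive KO. Naive KO replicate 3 reached the day 35 range, so the groups overlapped, and the difference did not pass (log2 fold change 0.68, SE 0.299, edgeR quasi-likelihood adjusted p = 0.103). Without that replicate it passed, at 0.98.

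Cx3cr1 (ENSMUSG00000052336, chromosome 9, 119901616 to 120069879), the fractalkine receptor whose locus carries the Cre, rose at day 35. It had 650.8, 699.7, 1498 and 961.9 CPM in day 35 KO, against 117.8, 129.5, 136.4 and 291.5 CPM in naive KO. The groups did not overlap, and the log2 fold change was 2.50 (SE 0.462, adjusted p = 0.000715), a change opposite in direction to most homeostatic genes described below. The part of the Cre insertion in these counts was not tested.

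Across the transcriptome, 2970 genes were called at an adjusted p under 0.05 (21.4% of 13880), 1608 higher (11.6%) and 1362 lower (9.81%) in day 35 KO. The count rested in part on single libraries. It was 1597 without day 35 KO replicate 4, 1979 without naive KO replicate 2 and 1735 without the fourth replicate of both groups.

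**Figure D2:**
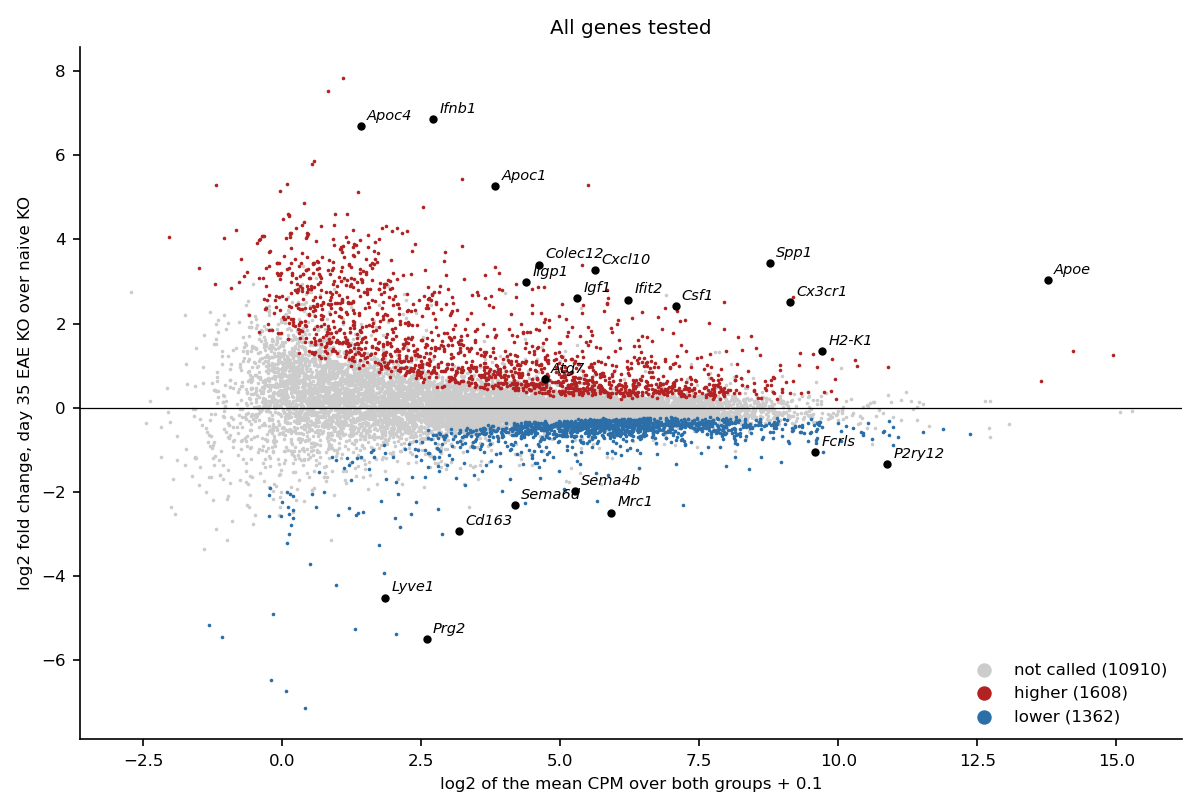
Each of the 13880 genes tested, log2 fold change of day 35 EAE KO over naive KO against log2 of the mean CPM + 0.1. Red marks the 1608 genes called higher, blue the 1362 called lower and grey the 10910 not called.

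The genes with the largest increases among those with separate groups held interferon beta, apolipoproteins and secreted or scavenger proteins. Ifnb1, which encodes interferon beta (ENSMUSG00000048806, chromosome 4, 88522025 to 88522774), had 12.63, 15.42, 10.98 and 12.29 CPM in day 35 KO, against 0, 0.09667, 0.2573 and 0 CPM in naive KO. That is 365 counts at day 35 against 3 in the naive libraries, a ratio of 137.4 after scaling for depth with a 95% counting interval of 46.7 to 669 (edgeR adjusted p = 8.46e-07). All 4 day 35 libraries held the transcript, at levels within a narrow range. Apoc4, an apolipoprotein gene of the Apoe cluster, had 4.011, 2.995, 10.7 and 2.607 CPM in day 35 KO, against 1 count in all of naive KO, a ratio of 162.7 (counting interval 28.7 to 6470; adjusted p = 0.000158). Its neighbour Apoc1 had 24.51, 23.06, 47.03 and 15.76 CPM in day 35 KO, against 1.091, 1.16, 0.2573 and 0.1466 CPM in naive KO (log2 fold change 5.27, SE 0.635, adjusted p = 5.13e-06). Day 35 KO replicate 3 was the highest for both apolipoproteins. Spp1, which encodes osteopontin, rose by 3.43 (SE 0.848, adjusted p = 0.00677), with 824.2, 808.9, 850.8 and 701 CPM in day 35 KO, against 54.55, 88.26, 145.9 and 6.746 CPM in naive KO. The day 35 libraries were alike, and naive replicate 4 was the lowest. Colec12, a scavenger receptor, rose by 3.40 (SE 0.489, adjusted p = 5.88e-05) to 28.67 to 54.52 CPM in day 35 KO, against 0.2933 to 7.077 CPM in naive KO. Actr3b, a subunit of the actin-nucleating Arp2/3 complex, rose by 4.32 (adjusted p = 8.91e-06), at 5.942 to 7.745 CPM in day 35 KO and 0 to 0.7734 CPM in naive KO.

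The other 4 of the 10 largest increases were genes known for high expression in neurons or glia: Ank3 (3.83), Gria2 (3.73), Ntm (3.54) and Adgrb2 (3.54). Gria2, an AMPA receptor subunit, had 7.279, 5.241, 1.267 and 22.84 CPM in day 35 KO, against 0.5455, 0.1933, 1.029 and 1.027 CPM in naive KO. Replicate 4 was highest and replicate 3 lowest at day 35, the same libraries that were highest and lowest for summed neuron markers. Without replicate 4 of day 35, Ntm no longer passed (largest adjusted p 0.0513).

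The 10 largest decreases held genes of other myeloid cells and membrane proteins. Prg2, an eosinophil granule protein, had 0.1485, 0.1497, 0 and 0.6206 CPM in day 35 KO, against 20.86, 15.47, 9.521 and 0.7332 CPM in naive KO (log2 fold change -5.49, SE 1.43, adjusted p = 0.00937). Lyve1 (-4.51, adjusted p = 0.000596) and Cd163 (-2.92, adjusted p = 0.0027), surface receptors of border macrophages, fell as well, with Lyve1 at 0.2483 to 0.2995 CPM in day 35 KO and 0.8799 to 10.36 CPM in naive KO. For Prg2 and Lyve1 naive replicate 4 lay close to the day 35 libraries, and without it their log2 fold changes were -5.86 and -4.87. Kl, which encodes klotho, fell by 2.84 (adjusted p = 0.00796). The lowest adjusted p among the 10 was that of Sema4b, a transmembrane semaphorin (ENSMUSG00000030539, chromosome 7, 80186841 to 80226527), with 15.45, 16.02, 15.91 and 14.15 CPM in day 35 KO, against 58.36, 56.07, 53.65 and 75.38 CPM in naive KO. Its groups lay far apart relative to their spread (log2 fold change -1.98, SE 0.206, adjusted p = 6.15e-07). Another semaphorin, Sema6d (-2.31, adjusted p = 0.000133), the receptor gene Gpr165 (-2.25), the membrane metalloproteinase Mmp15 (-2.05) and Tmem204 (-1.98, adjusted p = 6.74e-05) fell too, and Capn11 (-2.53, adjusted p = 0.0277) lost its call when any of 4 single libraries was left out.

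**Figure D3:**
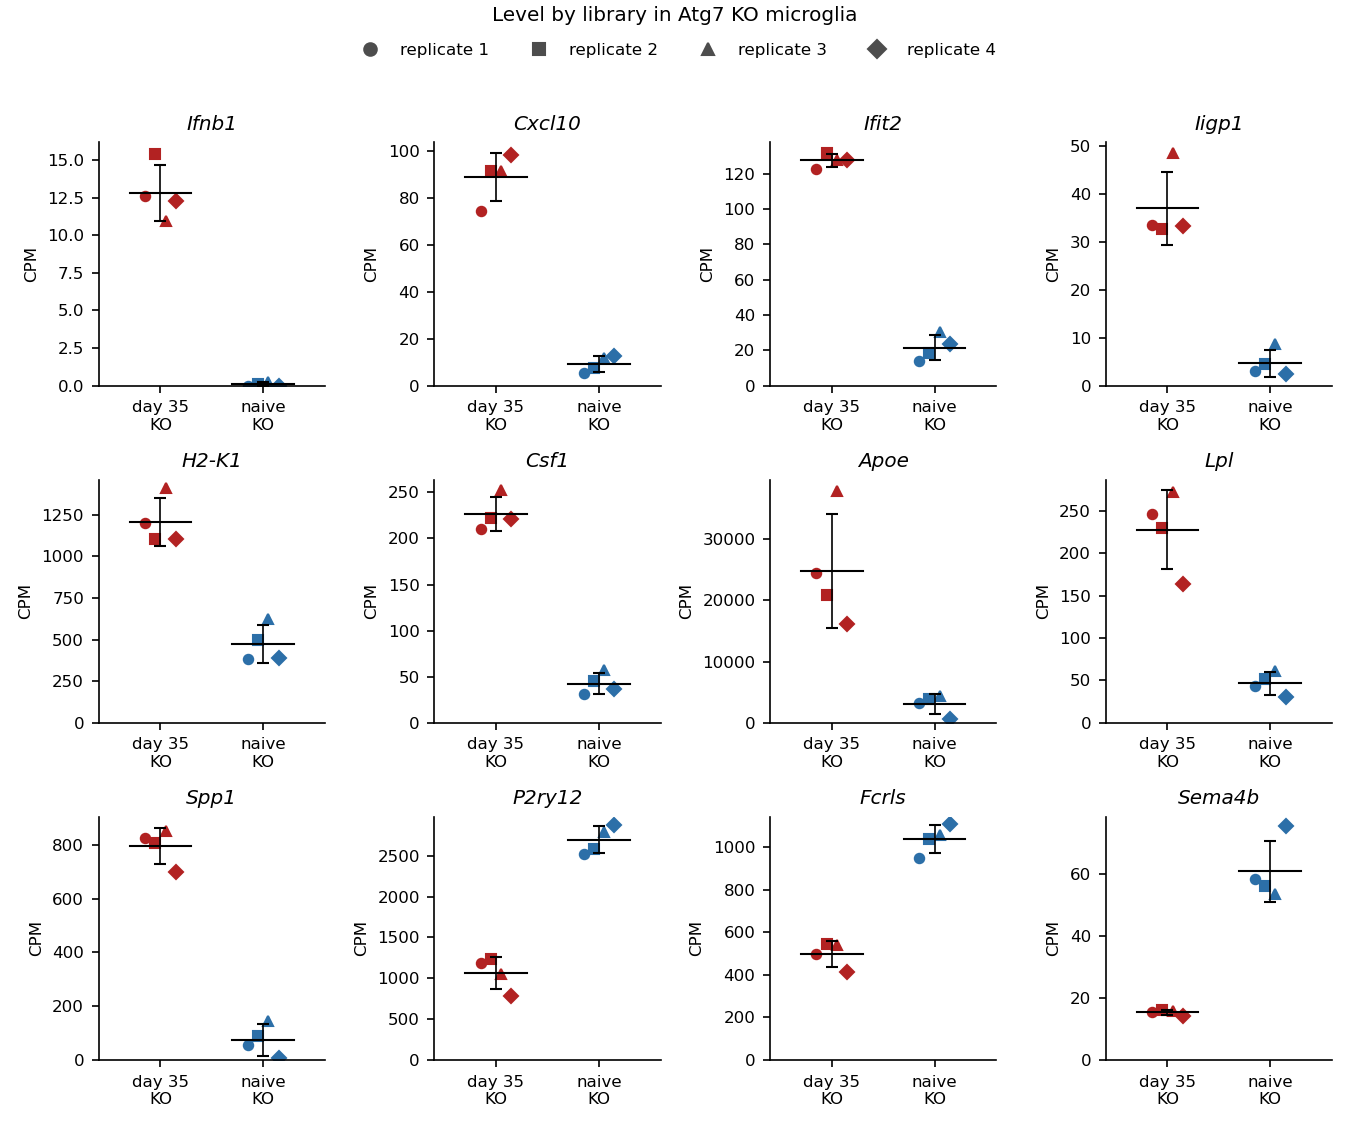
CPM of 12 genes in each library, day 35 EAE KO left of naive KO (point shape marks the replicate, line and bar the mean ± SD). Ifnb1, Cxcl10, Ifit2, Iigp1, H2-K1, Csf1, Apoe, Lpl and Spp1 were higher in every day 35 library, and P2ry12, Fcrls and Sema4b were lower in every one.

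Interferon-induced genes rose in day 35 KO. Of 36 genes of the type I interferon response, 28 rose and none fell (none either in DESeq2 or at an unadjusted p under 0.05), with a median log2 fold change of 1.04, beside 0.00 over all genes tested, and leaving out any library left 26 to 28. In 29 of the 36, every day 35 KO library was above every naive KO library, beside 12.7% of all genes. Of all genes tested, 11.6% were called higher and 9.81% lower. Type I interferons act through a shared receptor on target genes, many of which carry the interferon-stimulated response element (ISRE). In the promoters of this list that element's core, GAAANNGAAA, was searched on either strand of the RefSeq windows of build GRCm38.p6, which run from 250 bases before to 50 bases after each start. Of the 36 genes 25 had a window, and 15 of these held the core, against 943 of all 27025 windows (3.49%), 77 of 1102 genes called higher (6.99%) and 31 of 1032 called lower (3.0%). Overlapping matches were counted. A match describes letters in the window and is not evidence of binding. The windows of Ifit3 and Isg15 are shown because they hold several cores, in capitals, and read 5′ to 3′ along the gene, with positions counted back from -1, the base before the start.
Ifit3 (chr19:34583353-34583436, plus strand, 2 cores on the opposite strand starting at -156 and -122): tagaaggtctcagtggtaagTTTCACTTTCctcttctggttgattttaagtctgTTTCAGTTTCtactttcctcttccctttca
Isg15 (chr4:156200855-156200916, minus strand, 3 overlapping cores starting at -78, -72 and -66): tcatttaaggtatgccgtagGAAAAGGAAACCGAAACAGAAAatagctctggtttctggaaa

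Ifit3, an RNA-binding antiviral protein, had 29.41, 28.45, 35.48 and 26.07 CPM in day 35 KO, against 8.455, 10.05, 13.64 and 12.17 CPM in naive KO (log2 fold change 1.43, SE 0.19, adjusted p = 8.64e-06). Isg15, a ubiquitin-like modifier, had 15.75, 11.98, 12.95 and 11.42 CPM in day 35 KO, against 2.182, 3.577, 4.246 and 4.106 CPM in naive KO (1.88, SE 0.283, adjusted p = 4.76e-05). The groups of both genes were separate by a wide margin. Ifit2, of the same family as Ifit3, gave the list's lowest adjusted p, with 122.4, 131.8, 127.9 and 127.6 CPM in day 35 KO, against 13.77, 18.27, 30.37 and 23.46 CPM in naive KO (2.57, SE 0.28, adjusted p = 1.82e-06). The 4 day 35 libraries differed little from each other. Ifih1, the cytosolic RNA sensor MDA5, rose by 0.99 (SE 0.128, adjusted p = 5.8e-06), with 83.5 to 88.94 CPM in day 35 KO and 39.95 to 47.48 CPM in naive KO.

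Genes of the interferon gamma response rose alongside. Of 22, 16 rose and 2 fell, with a list median of 0.99, beside 11.6% higher and 9.81% lower over all genes tested. The 2 that fell were both chains of the receptor (Ifngr1 by 0.71 and Ifngr2 by 0.27 on the log2 scale). Only 1 member was called lower without day 35 KO replicate 1 or 4 or naive KO replicate 1, 2 or 3. The same held with median-ratio scaling and with no filter on low counts. Iigp1, an immunity-related GTPase, had 33.57, 32.64, 48.44 and 33.27 CPM in day 35 KO, against 3, 4.544, 8.621 and 2.346 CPM in naive KO (log2 fold change 2.98, SE 0.357, adjusted p = 6.27e-06). Irf1, a transcription factor induced by interferon gamma, had 157.3, 178.2, 195.6 and 167 CPM in day 35 KO, against 73.36, 80.24, 101.6 and 84.61 CPM in naive KO (1.04, SE 0.111, adjusted p = 6.15e-07). In both, the lowest day 35 library stood well above the highest naive one. The GTPases Tgtp2 (2.90, adjusted p = 7.75e-06) and Irgm1 (0.76, adjusted p = 2.92e-05) rose as well. The gamma-activated site (GAS), TTCNNNGAA, an element of interferon gamma target genes, was in 8 of the 17 windows of this list (47.1%) and in 8.47% of all windows, and the ISRE core was in 10 of the 17 (58.8%). Among genes called higher the GAS was in 6.72% of windows, among genes called lower in 5.81% and among genes tested in 6.94%. The window of Irf1 is shown because it holds both a GAS and a match to the NF-kappaB consensus, in capitals in that order, starting at -90 and -13.
Irf1 (chr11:53769904-53770013, plus strand): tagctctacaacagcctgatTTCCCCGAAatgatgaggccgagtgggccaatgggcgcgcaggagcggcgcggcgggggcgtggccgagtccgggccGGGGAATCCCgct

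MHC class I genes rose together. Of 21 genes for the class I chains and their peptide-loading machinery, 14 rose and none fell (likewise in DESeq2 and unadjusted), with a median of 0.55, and 13 to 15 were called when any library was left out. The shares over all genes tested were 11.6% higher and 9.81% lower. H2-K1, a classical class I heavy chain (ENSMUSG00000061232, chromosome 17, 33996017 to 34000347), had 1200, 1103, 1410 and 1107 CPM in day 35 KO, against 384.1, 496.9, 622.8 and 392 CPM in naive KO (log2 fold change 1.35, SE 0.174, adjusted p = 5.89e-06). Tap1, a subunit of the peptide transporter, had 183.3, 185.7, 233.2 and 146.2 CPM in day 35 KO, against 79.91, 99.18, 108.6 and 87.55 CPM in naive KO (0.99, adjusted p = 1.78e-05). Neither pair of groups overlapped. The nonclassical H2-Q4 rose by 1.87 (SE 0.194, adjusted p = 6.54e-07) and H2-T22 by 1.03 (adjusted p = 7.11e-05). The heavy chains are near-identical copies of each other, so the split of reads between them is uncertain.

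For MHC class II the call was weak, beside 11.6% of all genes tested that were called higher. Of 11 genes 1 was called, Cd74, the invariant chain, with 1259, 982.9, 1176 and 824.5 CPM in day 35 KO, against 359.2, 562.6, 791.3 and 45.31 CPM in naive KO. The groups did not overlap, but the adjusted p was 0.0495 (log2 fold change 1.27, SE 0.455), and leaving out any of 6 of the 8 libraries ended the call, with values of 0.89 to 1.72. Without naive KO replicate 3, 4 class II genes were called higher. H2-Aa, a class II chain, had 242.3, 185.8, 265.1 and 186.3 CPM in day 35 KO, against 93, 131, 193.9 and 7.186 CPM in naive KO, and did not pass (1.05, SE 0.478, adjusted p = 0.121). Naive KO replicate 4 was far below the rest for both genes. The class II list's median was 0.53, and it was 0.74 without naive KO replicate 3 and 0.23 without naive KO replicate 4.

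Chemokines and cytokines rose more often than they fell, with 12 of 28 higher, 3 lower and a median of 0.57. Of all genes tested, 11.6% were higher and 9.81% lower. Cxcl10, the CXCR3 ligand that attracts T cells (ENSMUSG00000034855, chromosome 5, 92346638 to 92348889), had 74.42, 91.34, 91.39 and 97.94 CPM in day 35 KO, against 5.182, 7.637, 11.84 and 12.46 CPM in naive KO (log2 fold change 3.26, SE 0.337, adjusted p = 9.74e-07). Ccl3, a chemokine that attracts monocytes and T cells, had 292.5, 318.2, 365.5 and 336.3 CPM in day 35 KO, against 73.91, 74.53, 63.3 and 111.2 CPM in naive KO (2.02, SE 0.295, adjusted p = 6.92e-05). All day 35 libraries were above all naive ones for both. Ccl12, a CCR2 ligand, rose by 1.62 (adjusted p = 9.66e-06) and the cytokine Tnf by 1.41 (adjusted p = 0.000579). Il1b, the interleukin 1 beta gene, did not pass (0.52, SE 0.481, adjusted p = 0.468), with 62.98, 70.68, 98.71 and 103.8 CPM in day 35 KO, against 65.18, 69.8, 89.55 and 8.799 CPM in naive KO. The groups of Il1b overlapped apart from naive replicate 4. Among the decreases were Tgfb1 (-0.59, adjusted p = 0.00323), the cytokine on which the homeostatic state depends, and the eotaxin Ccl24 (-1.71, adjusted p = 0.00793).

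Genes of the Toll-like receptor and NF-kappaB pathways moved in both directions. Of 31 genes of that list 7 rose and 4 fell (2 without day 35 KO replicate 4), with a median of -0.05. Over all genes tested 11.6% rose and 9.81% fell. Nfkbia, which encodes the inhibitor IkappaB alpha, had 227.1, 270.3, 294.6 and 245.8 CPM in day 35 KO, against 108.1, 110.6, 107.7 and 121.3 CPM in naive KO (log2 fold change 1.21, SE 0.138, adjusted p = 9.88e-07). Tnfaip3, which encodes the deubiquitinase A20, had 394.2, 462.5, 455.1 and 471.1 CPM in day 35 KO, against 139.1, 163.6, 200.9 and 187.6 CPM in naive KO (1.37, SE 0.184, adjusted p = 1.38e-05). Both groups of values were tight and separate. Tlr2 rose by 0.63 (adjusted p = 0.00125), whereas Tlr5, the flagellin receptor, fell by 1.68 (SE 0.206, adjusted p = 3.28e-06), with 6.9 to 8.984 CPM in day 35 KO and 22.9 to 29.77 CPM in naive KO. The NF-kappaB consensus was matched in 10 of 25 windows of this list and in 8.18% of all windows. It was matched in 12.6% of genes called higher and 9.69% of those called lower, beside 10.1% of genes tested. The windows of Cxcl10, Nfkbia and Csf1 are shown for the matches they hold. In Cxcl10 the capitals mark an ISRE core at -213 and NF-kappaB matches at -159, -104 and -103, where the last 2 overlap, and in Nfkbia and Csf1 they mark 1 NF-kappaB match each, at -29 and -154.
Cxcl10 (chr5:92348963-92349122, minus strand): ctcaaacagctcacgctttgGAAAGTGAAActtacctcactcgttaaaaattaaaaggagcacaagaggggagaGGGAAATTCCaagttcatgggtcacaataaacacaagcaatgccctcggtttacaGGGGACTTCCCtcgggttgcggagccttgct
Nfkbia (chr12:55492648-55492696, minus strand): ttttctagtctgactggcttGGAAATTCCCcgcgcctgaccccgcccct
Csf1 (chr3:107760594-107760643, minus strand): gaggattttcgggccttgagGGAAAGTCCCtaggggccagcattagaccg

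Of the costimulation and checkpoint genes 4 of 13 rose and 4 fell, beside 11.6% and 9.81% of all genes tested. The count of higher genes was 2 without naive KO replicate 4 and 3 without any other library. That of lower genes was 0 without day 35 KO replicate 4, 1 without naive KO replicate 1 or 3, and 2 without day 35 KO replicate 2 or naive KO replicate 2 or 4. Cd83, an activation marker of antigen-presenting cells, rose by 1.28 (adjusted p = 7.16e-07), with 265, 293, 350.5 and 267 CPM in day 35 KO, against a mean of 120.7 CPM in naive KO. Cd274, the checkpoint ligand PD-L1, rose by 1.45 (adjusted p = 0.000426), with 71.6, 69.33, 73.22 and 76.96 CPM in day 35 KO, against 25.23, 29.77, 38.47 and 12.46 CPM in naive KO. In both genes the groups were separate.

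Genes of the disease-associated microglia program rose, and none of them fell in edgeR, in DESeq2 or at an unadjusted p under 0.05. Of 28 tested 15 rose (13 to 16 when any library was left out), with a median of 0.85. By comparison, 11.6% of all genes tested rose and 9.81% fell. Csf1, the growth factor of macrophages (ENSMUSG00000014599, chromosome 3, 107741048 to 107760469), had 210, 222.1, 252.9 and 221.3 CPM in day 35 KO, against 30.68, 45.24, 57.64 and 36.66 CPM in naive KO (log2 fold change 2.41, SE 0.236, adjusted p = 6.15e-07). Lpl, lipoprotein lipase (ENSMUSG00000015568, chromosome 8, 68880491 to 68907448), had 247, 229.7, 273.2 and 163.4 CPM in day 35 KO, against 42.95, 52.01, 61.5 and 30.21 CPM in naive KO (2.29, SE 0.269, adjusted p = 4.85e-06). Every day 35 library was several times above every naive one for both. Igf1, a growth factor for oligodendrocytes, had 72.34, 64.09, 82.94 and 50.77 CPM in day 35 KO, against 14.05, 12.18, 15.05 and 2.64 CPM in naive KO (2.61, SE 0.391, adjusted p = 8.5e-05). Apoe, the main lipid carrier of the brain (ENSMUSG00000002985, chromosome 7, 19696109 to 19699188), had 24410, 20860, 37900 and 16110 CPM in day 35 KO, against 3290, 3894, 4361 and 624.3 CPM in naive KO (3.03, SE 0.542, adjusted p = 0.000539). Day 35 replicate 3 was highest and naive replicate 4 lowest. The cysteine protease inhibitor Cst7 rose by 2.49 (adjusted p = 0.000988) and the lectin Clec7a by 1.69 (adjusted p = 0.000936).

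The receptor and adaptor through which this program is known to be switched on were not called. Trem2 had 703.1, 659.3, 851.2 and 551.1 CPM in day 35 KO, against 768.5, 770.3, 662.6 and 706.8 CPM in naive KO (-0.07, SE 0.175, adjusted p = 0.803). Tyrobp had 335.7, 349.2, 546.9 and 345.8 CPM in day 35 KO, against 406.6, 433.1, 452.5 and 315.7 CPM in naive KO (-0.03, SE 0.173, adjusted p = 0.928). The groups of both genes overlapped.

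Lipid genes gave a mixed picture by branch, beside 11.6% of all genes called higher and 9.81% called lower. Of 19 LXR targets and cholesterol exporters 8 rose and 2 fell (1 without day 35 KO replicate 4), with a median of 0.34. Ch25h, the cholesterol 25-hydroxylase, had 19.46, 16.92, 26.61 and 26.32 CPM in day 35 KO, against 3.273, 1.933, 4.375 and 0.2933 CPM in naive KO (log2 fold change 3.16, SE 0.474, adjusted p = 7.18e-05), with no overlap. Of the sterol exporters, Abca1 rose by 0.39 (adjusted p = 0.0115) and Abcg1 did not pass (-0.03, adjusted p = 0.878). None of the 22 genes of sterol synthesis was called in either direction by edgeR or DESeq2, with a median of 0.06, and at an unadjusted p under 0.05 there were 2 higher and 1 lower. Of 22 lipid droplet and fatty acid genes 4 rose. Fabp5, a fatty acid binding protein, rose by 2.86 (adjusted p = 0.000715), Fabp3 of the same family by 2.55 (adjusted p = 0.00588) and Acaca, the first enzyme of fatty acid synthesis, by 1.02 (adjusted p = 0.000984). Plin2, the coat protein of lipid droplets, rose by 0.83 (adjusted p = 0.0297), a call that 3 of the 8 libraries each decided.

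Homeostatic microglia genes fell. Of 24 genes 16 fell and 1 rose, Cx3cr1, with a median of -0.60, and in 21 every day 35 KO library was below every naive KO library, beside 13.2% of all genes. Over all genes tested 9.81% were called lower and 11.6% higher. The count of lower members was 9 without day 35 KO replicate 4, which had the lowest sum of microglia markers, and 7 without the fourth replicate of both groups. P2ry12, the ADP receptor that guides process extension (ENSMUSG00000036353, chromosome 3, 59216272 to 59262871), had 1187, 1232, 1052 and 787.3 CPM in day 35 KO, against 2525, 2584, 2791 and 2872 CPM in naive KO (log2 fold change -1.34, SE 0.239, adjusted p = 0.000362). Fcrls, an Fc receptor-like scavenger protein, had 497.6, 545.9, 540 and 414.2 CPM in day 35 KO, against 948.3, 1040, 1056 and 1108 CPM in naive KO (-1.06, SE 0.183, adjusted p = 0.000233). The day 35 values of both lay far below the naive range, including those of replicates 1 to 3. The fructose transporter Slc2a5 (-1.16, adjusted p = 0.000551) and Ecscr (-1.34, adjusted p = 0.000371) also fell.

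The decrease did not reach every homeostatic gene to the same degree. Tmem119, a membrane protein used to mark microglia, had 1438, 1360, 1633 and 923.5 CPM in day 35 KO, against 1869, 1960, 1687 and 2019 CPM in naive KO. Its groups were separate, but the difference did not pass (-0.49, adjusted p = 0.164). Csf1r, the receptor of Csf1, gave -0.47 (adjusted p = 0.0612).

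Of 20 transcription factors and signalling genes of microglial identity 6 fell and 2 rose, with a median of -0.11, and 3 fell without the fourth replicate of both groups. By comparison, 9.81% of all genes tested fell and 11.6% rose. Maf had 550.4, 544, 507.1 and 436.1 CPM in day 35 KO, against 929.2, 958.1, 812.5 and 855.8 CPM in naive KO (-0.80, SE 0.145, adjusted p = 0.000331), with no overlap. Spi1, which encodes the myeloid factor PU.1, fell by 0.40 (adjusted p = 0.00225), Sall1 by 0.57 (adjusted p = 0.0213), and Runx1 rose by 0.42 (adjusted p = 0.00623).

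**Figure D4:**
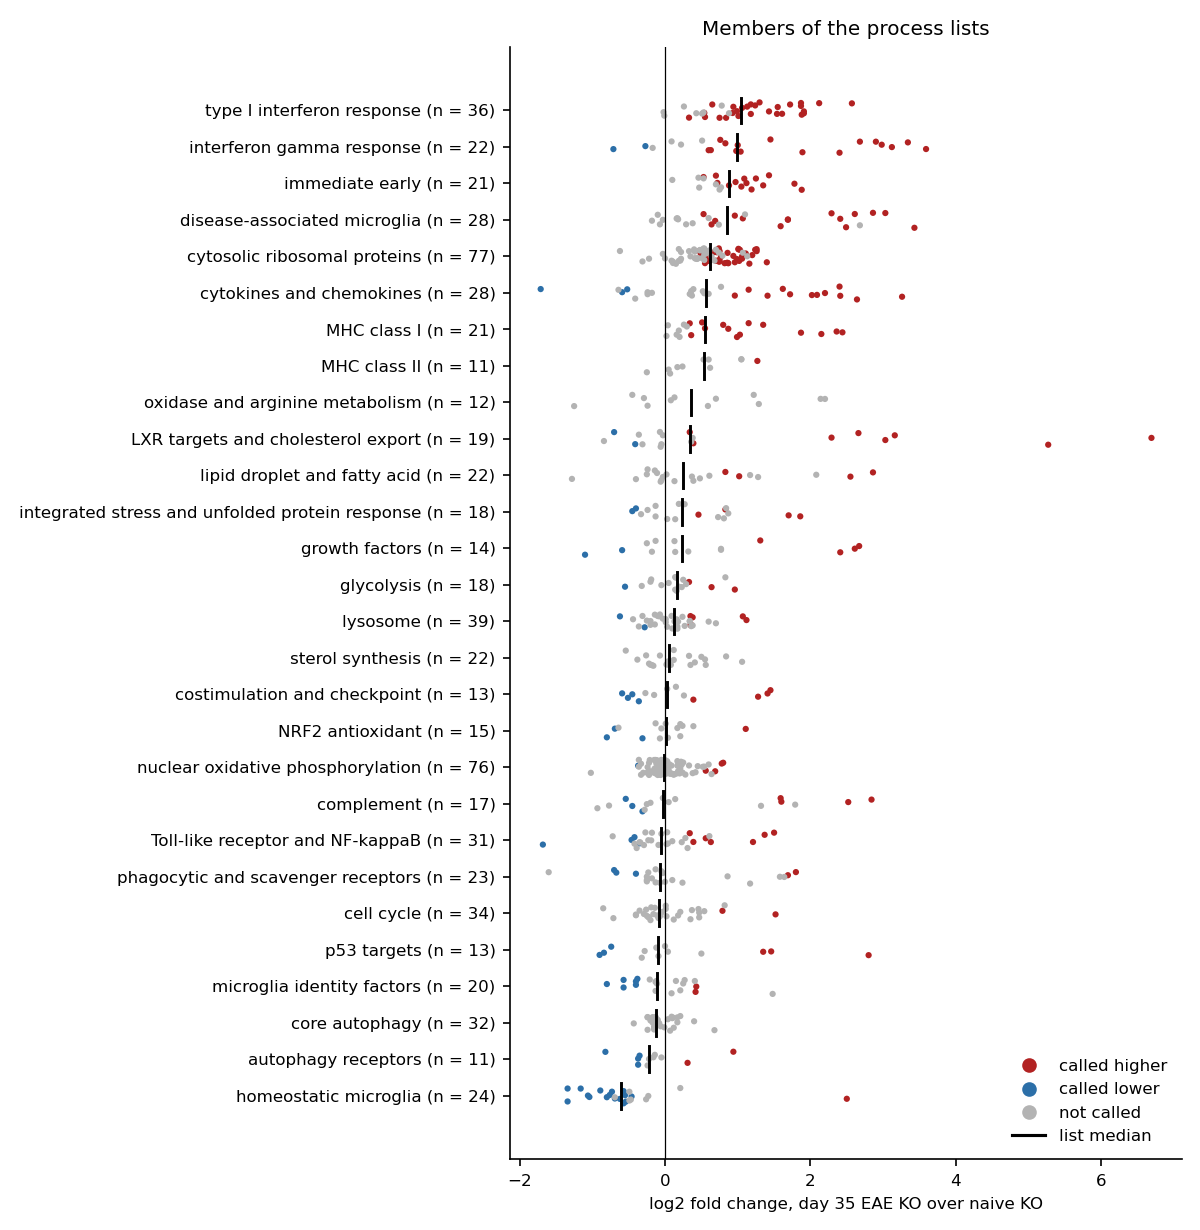
Log2 fold change of day 35 EAE KO over naive KO for each member tested (points) of the 28 process lists, with the list's median as a black line. The type I interferon, interferon gamma, immediate early and disease-associated lists have medians of 1.04, 0.99, 0.88 and 0.85, and the homeostatic list has the lowest, -0.60.

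Core autophagy genes were not called, whereas 21.4% of all genes tested were. Of 32, which include Atg7, none passed in edgeR in either direction, with a median of -0.13. DESeq2 called 1 higher, and at an unadjusted p under 0.05 there were 3 higher and none lower. Becn1, of the initiating lipid kinase complex, had 58.4 to 78.01 CPM in day 35 KO and 58.68 to 65.7 CPM in naive KO (0.11, SE 0.11, adjusted p = 0.523). Map1lc3b, an LC3 gene, had 41.21 to 50.01 CPM in day 35 KO and 41.04 to 46.05 CPM in naive KO (0.10, SE 0.105, adjusted p = 0.551). The groups overlapped for both genes. Of 11 autophagy receptors 4 fell and 2 rose, but no more than 3 and 1 were called once any library was left out. Sqstm1, the cargo receptor p62 and itself a substrate of autophagy, had 225.6, 234.9, 256.8 and 202.8 CPM in day 35 KO, against 220.1, 202, 157.4 and 161.6 CPM in naive KO (0.31, adjusted p = 0.037). Its groups overlapped, and 5 of the 8 libraries each decided the call.

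Lysosomal genes were mostly not called, with 6 of 39 higher, 2 lower (none without day 35 KO replicate 4) and a median of 0.13. The shares over all genes tested were 11.6% higher and 9.81% lower. Glb1, lysosomal beta-galactosidase, had 48.43, 54.06, 64.63 and 42.7 CPM in day 35 KO, against 21.14, 25.81, 27.66 and 22 CPM in naive KO (1.12, adjusted p = 9.62e-05). The tetraspanin Cd63 rose by 1.07 (adjusted p = 0.000736), the protease cathepsin C (Ctsc) by 0.35 (adjusted p = 0.00611) and the calcium channel Mcoln1 by 0.36 (adjusted p = 0.00674). In Glb1 the lowest day 35 library was above the highest naive one.

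Of 23 phagocytic and scavenger receptors 2 rose and 3 fell, shares near those over all genes (11.6% higher and 9.81% lower). Fcgr4, an activating Fc receptor, rose by 1.80 (adjusted p = 1.08e-05), at 37.86 to 77.87 CPM in day 35 KO and 11.15 to 19.04 CPM in naive KO. Axl, a receptor for phosphatidylserine bridged by Gas6, rose by 1.69 (adjusted p = 0.00286), at 365.4 to 559.6 CPM in day 35 KO and 47.37 to 237.1 CPM in naive KO. Protein S (Pros1) fell by 0.70 (adjusted p = 0.00548) and the integrin subunit Itgav by 0.67 (adjusted p = 0.000418). Of 17 complement genes 4 rose and 3 fell, counts that dropped to as few as 2 and 0 when a library was left out. C4b, complement component 4, averaged 418.9 ± 72.8 CPM in day 35 KO and 72.6 ± 62 CPM in naive KO (SD, n = 4 each) (2.52, SE 0.637, adjusted p = 0.00765), with no overlap. Itgax, which encodes CD11c, rose by 1.59 (adjusted p = 0.00162).

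Cytosolic ribosomal protein genes rose broadly. Of 77 genes 38 rose and none fell in edgeR or DESeq2 (1 at an unadjusted p under 0.05), with a median of 0.62. Without day 35 KO replicate 3, 24 were called higher and 1 lower. The shares over all genes tested were 11.6% higher and 9.81% lower. Rpl3 had 58.97, 66.78, 59.42 and 54.62 CPM in day 35 KO, against 28.36, 26.68, 29.21 and 39.45 CPM in naive KO (0.96, SE 0.15, adjusted p = 7.19e-05), and its groups were separate. Rps28 (1.26), Rpl13 (1.01) and Rps20 (0.99) rose as well. Many of these genes have processed pseudogenes, so the counting could split their reads.

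Immediate early genes are also known to respond to tissue dissociation. Beside 11.6% of all genes tested, 14 of the 21 rose, with a median of 0.88. This count rested on single libraries, at 3, 4 and 6 without naive KO replicates 1, 2 and 3, at 19 without naive KO replicate 4, at 9 without day 35 KO replicate 2 or 3, at 8 without day 35 KO replicate 4, and at 8 with no filter on low counts. Atf3 had 340, 379.7, 367.7 and 462.1 CPM in day 35 KO, against 76.91, 84.78, 84.41 and 175.5 CPM in naive KO (1.88, adjusted p = 0.000768). Fos had 398.9, 437.4, 474 and 406.9 CPM in day 35 KO, against 171.5, 196.2, 205.1 and 360.3 CPM in naive KO (0.88, adjusted p = 0.0473). Naive replicate 4 was the highest naive library for both, and no group overlapped. Ppp1r15a, the stress-induced phosphatase subunit GADD34, likewise had its highest naive value in replicate 4, with 488.3, 563.3, 539.6 and 527.2 CPM in day 35 KO, against 109.6, 109.7, 105.8 and 330.1 CPM in naive KO (1.70, SE 0.349, adjusted p = 0.00176).

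The other stress and growth factor lists moved in both directions, beside the 21.4% of all genes that were called. Of 18 genes of the integrated stress and unfolded protein response 4 rose and 2 fell (4 fell without day 35 KO replicate 3, and 1 without day 35 KO replicate 4), with Trib3 at 1.86 (adjusted p = 0.0088). Of 13 p53 targets 3 rose and 3 fell. Plk2, a stress-induced kinase, had 90.91, 107.5, 80.68 and 119 CPM in day 35 KO, against 9, 13.44, 16.34 and 18.48 CPM in naive KO (2.80, SE 0.305, adjusted p = 1.82e-06), with a wide gap between the groups. Of 15 NRF2 targets 1 rose, the heme oxygenase Hmox1 (1.11, adjusted p = 0.00353), and 3 fell. Of 14 growth factor genes 4 rose and 2 fell, with Lif at 2.67 (adjusted p = 0.00279) and Igfbp4 at -1.10 (adjusted p = 2.45e-05).

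Genes of energy metabolism gave counts that changed with single libraries. Of 76 nuclear genes of oxidative phosphorylation 4 rose and 1 fell, with a median of -0.01, beside 21.4% of all genes called. The higher count was 1 without day 35 KO replicate 3 or naive KO replicate 2 or 3 and 2 without day 35 KO replicate 4. The lower count ranged over 0 to 4, with the 4 reached without day 35 KO replicate 3. The mitochondrial genome's share of counts was higher in every day 35 library as given above. Of 18 glycolysis genes 3 rose and 1 fell, a share near that over all genes, and 1 was higher without day 35 KO replicate 2 or 4 or naive KO replicate 2 or 3, and 0 with no filter on low counts. None of 12 oxidase and arginine metabolism genes was called by edgeR or DESeq2, with 1 higher at an unadjusted p under 0.05. Of 34 cell cycle genes 2 rose, and Mki67, a marker of dividing cells, had 54.67, 75.62, 58.58 and 180 CPM in day 35 KO, against 121.4, 107.7, 119.7 and 64.52 CPM in naive KO (-0.16, adjusted p = 0.897). The fourth replicates were opposite to the others in both groups.

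Transcripts used as markers of cell types other than microglia gave the following values beside these lists. Fn1, fibronectin, rose by 2.62 (adjusted p = 0.0177), with 1029, 932.7, 937.5 and 1081 CPM in day 35 KO, against 141.8, 208.5, 289.6 and 7.772 CPM in naive KO, but it did not pass without the fourth replicate of both groups (adjusted p = 0.0513) or in a fit of these groups alone (adjusted p = 0.0777). Mrc1, the mannose receptor of border macrophages, fell by 2.49 (adjusted p = 0.00686), with 23.47, 18.27, 11.26 and 20.11 CPM in day 35 KO, against 141.7, 132.5, 120.7 and 15.25 CPM in naive KO. Naive replicate 4 lay within the day 35 range of Mrc1, and without it the value was -2.85 (adjusted p = 0.00116). The hemoglobin gene Hbb-bs rose by 3.40 (adjusted p = 0.00353), with 34.46, 78.46, 59 and 134.2 CPM in day 35 KO, against 11.73, 10.25, 0.6433 and 6.159 CPM in naive KO. The neuron list had 7 of 8 members higher, 2 without day 35 KO replicate 4, 3 without naive KO replicate 1, 2 or 3 and 4 without day 35 KO replicate 1. The oligodendrocyte list had 6 of 8 higher, 1 without day 35 KO replicate 4 and 3 without naive KO replicate 1 or 3. The astrocyte list had 9 of 9 higher, 4 without naive KO replicate 3 and 5 without naive KO replicate 1 or 2 or day 35 KO replicate 4. Of all genes tested, 11.6% were called higher. Every day 35 library was above every naive one in 0 neuron, 4 oligodendrocyte and 4 astrocyte members, beside 12.7% of all genes. In 1 oligodendrocyte member every day 35 library was below, beside 13.2% of all genes. Meg3, a noncoding RNA of neurons, had 75.91, 38.03, 1.549 and 237.1 CPM in day 35 KO, against 2.727, 1.643, 2.187 and 2.64 CPM in naive KO (5.28, adjusted p = 0.00265). Day 35 replicate 3 was below the naive range for Meg3, and the other day 35 libraries were above it. S100a9, a neutrophil and monocyte alarmin, had 156.9, 168.9, 32.67 and 971.8 CPM in day 35 KO, against 609, 537.9, 486.5 and 36.66 CPM in naive KO (-0.33, adjusted p = 0.864), and the groups overlapped fully. Without the fourth replicate of both groups, which held the extreme values for most of these markers, 1735 genes were called.

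Whether the change at day 35 differed between genotypes was tested as the KO change minus the WT change, with 4 libraries in each of the 4 groups. The EAE score was 1.5, 1, 1.5 and 1 in day 35 WT, below every day 35 KO library (2.5 to 3). Genotype and EAE score therefore cannot be told apart in this difference. Of 13880 genes 51 passed (0.367%), 33 with a higher difference in KO (0.238%) and 18 with a lower one (0.13%). The count was 7 without naive KO replicate 2 or naive WT replicate 3 and 190 without naive WT replicate 1, and DESeq2 called 478. It was 74 without day 35 WT replicate 3, the library whose title and knockout status disagree. No type I interferon, interferon gamma, MHC class I or MHC class II member was called by edgeR or DESeq2. At an unadjusted p under 0.05, 9 of 36 type I interferon members had a higher difference in KO, and 3 interferon gamma, 2 MHC class I and 1 MHC class II members a lower one, so a like response of the genotypes was not shown. Of the disease-associated list 3 members were called higher by edgeR and 10 by DESeq2, and of 77 ribosomal protein genes 1 by edgeR and 23 by DESeq2. Markers of other cells moved with the genotype difference too. Of 14 neutrophil markers 2 were called higher by edgeR and 13 by DESeq2, and of the monocyte and erythroid markers 0 by edgeR and 3 each by DESeq2 (6 and 5 at an unadjusted p under 0.05). Neutrophil markers summed to 598.7 to 810.4 CPM in day 35 WT and 2021 to 16920 CPM in naive WT, beside the KO sums given above. Their part in the genotype differences was not tested.

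Cx3cr1 and Nfkbia passed in every one of the 16 sets that left out a library. Cx3cr1 had 650.9, 822, 1190 and 555.9 CPM in day 35 WT, against 3585, 2652, 948.3 and 3109 CPM in naive WT, the opposite direction to the KO values above, and the difference of the log2 changes was 4.17 (SE 0.642, adjusted p = 0.00597). Every naive KO library was below every naive WT library for Cx3cr1, so this difference also holds a naive gap between the genotypes. Nfkbia had 136.7, 106.5, 148.1 and 141.2 CPM in day 35 WT, against 95.93 to 150 CPM in naive WT, a pair of groups that overlapped, and the difference was 1.07 (SE 0.194, adjusted p = 0.0142). Igf1 had 8.008, 9.129, 5.949 and 11.98 CPM in day 35 WT, against 14.11, 8.913, 21.98 and 9.694 CPM in naive WT. Its difference was 3.26 (SE 0.563, adjusted p = 0.0142), and it missed the threshold only without naive WT replicate 3 (2.93, adjusted p = 0.0529).

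Lpl had 43.04, 56.29, 49.63 and 71.01 CPM in day 35 WT, against 29.11, 45.74, 65.21 and 31.5 CPM in naive WT, and its difference was 1.93 (SE 0.374, adjusted p = 0.0246). The WT groups of Lpl overlapped, whereas the KO groups did not. Colec12 (3.70, SE 0.69, adjusted p = 0.0239) and Glb1 (1.26, SE 0.253, adjusted p = 0.0246) also differed, with Glb1 at 25.71 to 56.83 CPM in day 35 WT and 35.87 to 44.33 CPM in naive WT. Lpl and Colec12 each lost the call when naive KO replicate 2, naive WT replicate 3 or day 35 WT replicate 1 or 2 was left out, and Glb1 when any of these or naive KO replicate 1 was. Csf1 had 112.8, 97.22, 85.95 and 104.2 CPM in day 35 WT, against 37.05, 40.11, 88.69 and 40.91 CPM in naive WT. Its difference of 1.46 (SE 0.324, adjusted p = 0.0458) was lost in 12 of the 16 sets. Ifnb1 had 1.573, 3.043, 5.949 and 3.608 CPM in day 35 WT, against 0, 0, 2.243 and 0.7128 CPM in naive WT, and its genotype difference (adjusted p = 0.0478) was lost in 13 of 16. Ifnb1 was thus present in all 8 day 35 libraries of either genotype, and higher in each KO library than in any WT library.

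**Figure D5:**
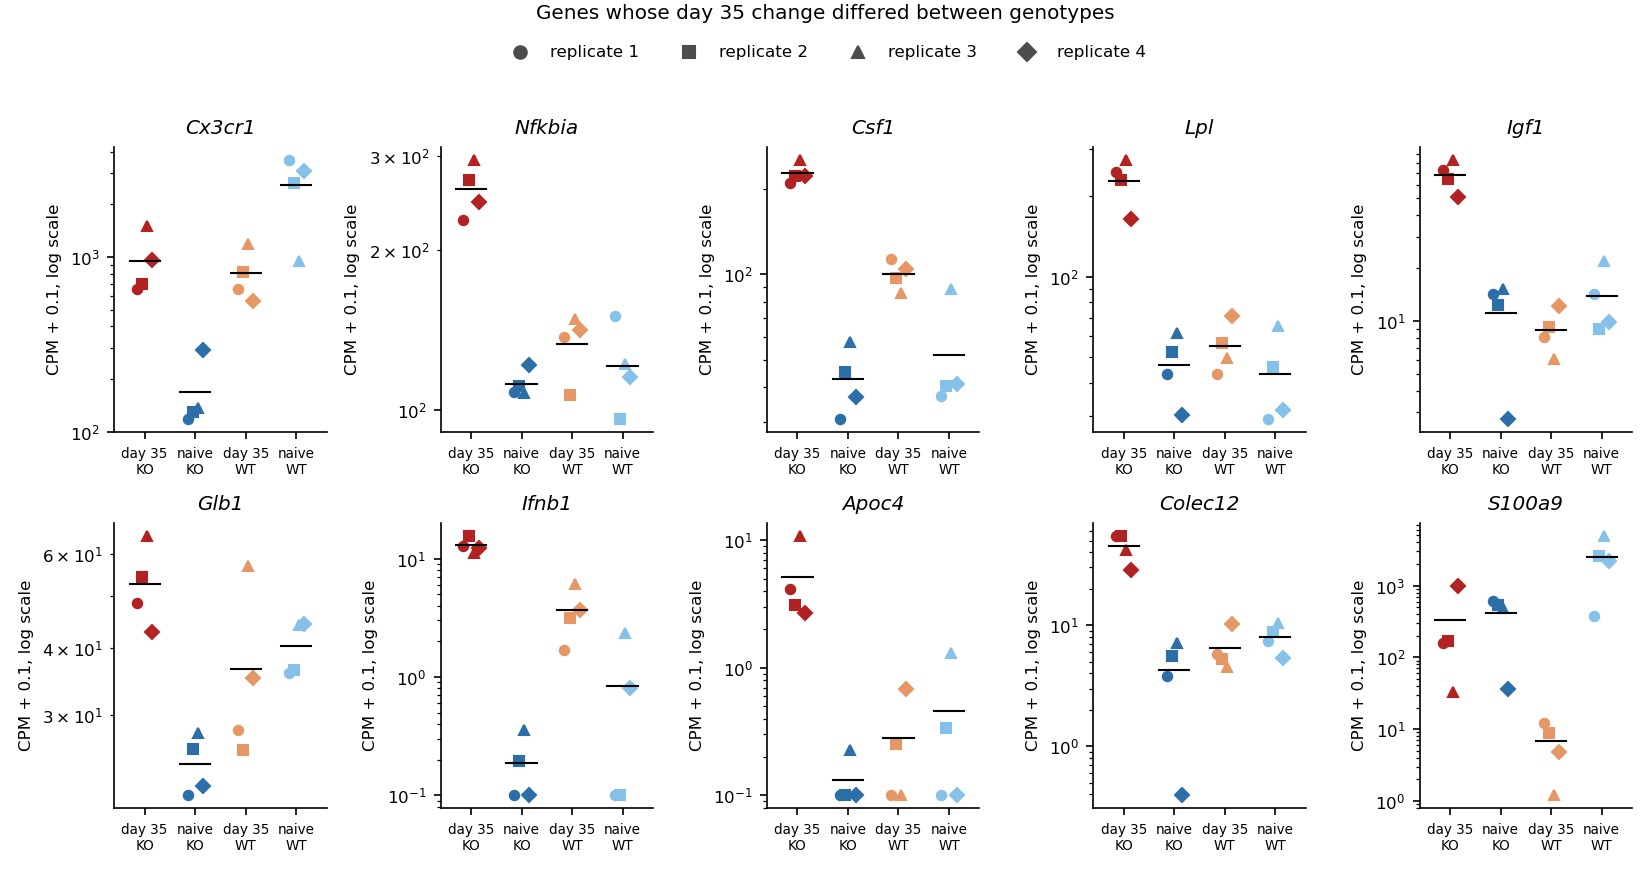
CPM + 0.1 on a log scale of 10 genes with a genotype difference, by library, in day 35 EAE KO, naive KO, day 35 EAE WT and naive WT (line, mean). Cx3cr1 was at 650.8 to 1498 CPM in day 35 KO and 117.8 to 291.5 CPM in naive KO, and the WT means lie in the opposite order.

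The course in KO was followed from naive through day 21 to day 35, with 4 libraries each. Against day 21 KO, day 35 KO had 3462 genes called (24.9%), 1843 higher (13.3%) and 1619 lower (11.7%), and 2590 to 3296 when any library was left out. The EAE score was 2.5 to 3 at day 35 and 2.75 to 3 at day 21. This comparison shares the day 35 libraries with the one against naive KO, so the values are set side by side.

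Most interferon-induced genes were lower at day 35 than at day 21. Of the type I list 31 of 36 were lower (median -1.10), of the interferon gamma list 18 of 22 (median -1.60), of MHC class I 16 of 21 (median -0.52) and of MHC class II 7 of 11 (median -0.68). Iigp1 averaged 4.628 ± 2.82 CPM in naive KO, 230.1 ± 27.5 CPM at day 21 and 36.98 ± 7.65 CPM at day 35 (SD, n = 4 each), and the log2 fold change of day 35 over day 21 was -2.64 (SE 0.311, edgeR adjusted p = 1.84e-06). Cd74 averaged 439.6 CPM (45.31 to 791.3), 3164 ± 323 CPM and 1061 ± 195 CPM in the same order (-1.58, SE 0.458, edgeR adjusted p = 0.0149). Iigp1 and Cd74 were still above naive at day 35, by the values given earlier. Cd74 was the only 1 of the 11 class II genes called above naive. That call was lost without any of 6 of the 8 libraries. Ifit2 averaged 127.4 ± 3.84 CPM at day 35 and 209.3 ± 27.5 CPM at day 21 (-0.72, edgeR adjusted p = 0.0433), a call that was lost when any of the 8 libraries was left out. Ifnb1 itself averaged 12.83 ± 1.87 CPM at day 35 and 9.7 ± 4.02 CPM at day 21 and did not pass (0.40, edgeR adjusted p = 0.549). Cxcl10 averaged 88.77 ± 10.1 CPM at day 35 and 138.8 ± 9.66 CPM at day 21 and did not pass between the days (-0.64, SE 0.293, edgeR adjusted p = 0.111).

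Most homeostatic genes were higher at day 35 than at day 21. Of 24 genes 17 were higher and none was lower, with a median of 0.89 (15 to 19 higher when any library was left out). P2ry12 averaged 2693 ± 165 CPM in naive KO, 348.7 ± 20.5 CPM at day 21 and 1064 ± 200 CPM at day 35 (1.61, SE 0.242, edgeR adjusted p = 2.8e-05). Fcrls averaged 1038 ± 66.4, 160.9 ± 21.6 and 499.5 ± 60.8 CPM in that order (1.63, SE 0.187, edgeR adjusted p = 3.8e-07). For both, day 35 lay between the naive and day 21 values. Summed microglia markers were 9562 to 10180 CPM at day 21, below all day 35 KO libraries.

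Some disease-associated genes were high at day 35 and not at day 21. Of 28 members 11 were higher at day 35 than at day 21 (7 without day 35 KO replicate 3) and 1 was lower, with a median of 0.46. Lpl averaged 46.67 ± 13.3 CPM in naive KO, 37.1 ± 6.57 CPM at day 21 and 228.3 ± 46.8 CPM at day 35 (2.62, SE 0.275, edgeR adjusted p = 3.33e-07). Igf1 averaged 10.98 ± 5.69, 6.285 ± 2.01 and 67.53 ± 13.6 CPM (3.41, SE 0.42, edgeR adjusted p = 3.54e-06). For these genes day 21 was within 2 SD of naive, and the increase appeared between the later times. Apoe averaged 24820 ± 9360 CPM at day 35 and 12020 ± 1210 CPM at day 21 and did not pass (1.05, edgeR adjusted p = 0.137), nor did Spp1, at 796.2 ± 65.8 CPM at day 35 and 320.4 ± 35.3 CPM at day 21 (1.31, edgeR adjusted p = 0.229). Nfkbia averaged 111.9 ± 6.36, 163.4 ± 20.6 and 259.4 ± 29.3 CPM, a further increase from day 21 to day 35 (0.67, edgeR adjusted p = 0.000721).

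Of 34 cell cycle genes 24 were lower at day 35 than at day 21 (median -1.64), a count of 8, 9 and 11 without day 35 KO replicates 1, 2 and 3, and of 12 and 13 without day 21 KO replicates 3 and 4. All 7 T and NK cell markers tested were lower at day 35, with sums of 1.048 to 4.308 CPM at day 35 and 22.93 to 28.38 CPM at day 21. Of 14 neutrophil markers 7 were higher at day 35 (median 3.52), a count of 0 without day 35 KO replicate 4 and of 1, 1, 2 and 3 without day 21 KO replicates 1 to 4. All 4 B and plasma cell markers tested were higher (median 2.79), and 6 of 10 border macrophage markers were lower (median -1.90), 3 without day 35 KO replicate 1, 2 or 3. Summed monocyte markers were 2170 to 2981 CPM at day 21, above every day 35 library. The hemoglobin gene Hbb-bs (5.23) and the neuronal Meg3 (4.52) were higher at day 35 than at day 21, where neuron markers summed to 9.334 to 12.88 CPM. The mitochondrial share was 6.997 to 8.908% at day 35 and 8.349 to 9.123% at day 21, above every naive KO library at both times.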

How the data were processed

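Sorted microglia were profiled by RNA sequencing in 8 groups and 30 libraries, of which 4 day 35 EAE KO and 4 naive KO libraries are the subject. The authors deposited raw counts of 46078 Ensembl genes, and the submitters' processing notes name CASAVA, bcl2fastq, STAR and GRCm38. No source used here gives their versions, the counter, the strand setting or the annotation. The EAE score and RNA integrity number are deposited scores, per the file headers. Of 32 count columns 2 were not used. Columns were matched to samples by group and plate well, an inference that placed all 30 titles in a column of their own group. Day 35 WT replicate 3 is WT by title and KO by knockout status, and was kept as WT. The i5 index number served as a replicate block. Day 35 and naive KO libraries with the same number did not deviate together (correlations -0.03, -0.08, 0.03 and -0.06), and the main fit used no pairing. With 4 libraries per group, these correlations cannot show whether the samples were paired.

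Counts were analysed in edgeR 4.0.16 (R 4.3.3, limma 3.58.1), with filterByExpr (minimum count 10, total 15), TMM scaling, 1 mean per group over all 30 libraries (22 residual degrees of freedom), robust quasi-likelihood tests and Benjamini-Hochberg adjustment over 13880 genes, with a call at 0.05. The steps were tested on simulated counts with the same dispersion for every gene and changes only in well-counted genes. Libraries that stand apart, and changes in genes with few counts, were not simulated. Symbols and coordinates came from GENCODE M21 (GRCm38) and covered 45229 genes. The 849 others held 0.0552% of the counts, and 128 genes share a symbol. Summed markers and shares were tested by a two-sided exact permutation test. Counting intervals are 95% and cover counting error only. Promoters are RefSeq windows of GRCm38.p6.

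Named were Atg7, Cx3cr1, the 10 highest and 10 lowest called genes with separate groups and at least 5 CPM in the higher group, the 4 called members of each process list with the lowest adjusted p, and the 2 most abundant members of each marker list, leaving out predicted, clone-type and shared symbols. Isg15, Tmem119, Trem2, Tyrobp, Cst7, Clec7a, Sall1, Tnf, Tgfb1, Ccl24, Il1b, H2-Aa, Ifngr1, Ifngr2, Abca1, Abcg1, Fos, Becn1, Map1lc3b, Mki67 and Gzma fall outside that rule and were named with their values seen. Some genes that the rule names are not reported here. The members and lists were chosen with earlier results of these data known. Alternatives were median-ratio scaling, no filter, the block, a fit of the compared groups alone, DESeq2 1.42.0 and leaving out each library.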

Additional observations from a re-analysis of the deposited data

Results flagged for a closer look

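Of 298 groups of 4 libraries, 28 held a library whose gap to the nearest of the others exceeded Dixon's critical value, where chance alone gives about 1 in 20. Naive KO replicate 4 accounted for 13 and day 35 KO replicate 4 for 8. Naive KO replicate 4 was high for the Cre-bearing Cx3cr1 (291.5 CPM), the stress-induced Ppp1r15a (330.1) and Atf3 (175.5), the membrane proteins Sema6d (41.79) and Gpr165 (60.56), the sorting adaptor Tollip (47.95), the astrocyte transporter Slc1a2 (104.9), the neuronal Camk2a (17.45) and Adgrb2 (1.027), and for summed neuron markers (31.68 CPM). It was low for Plin2 (16.57), Mrc1 (15.25) and summed neutrophil markers (644.4 CPM).

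Day 35 KO replicate 4 was low for Slc2a5 (124.5 CPM), Pros1 (236.2), Igfbp4 (23.21) and summed microglia markers (11550). It was high for S100a9 (971.8 CPM), Chil3 (159), F13a1 (42.58) and Ntm (14.4). Day 35 KO replicate 3 was high for Iigp1 (48.44 CPM) and Cd63 (140.7), and low for Sema6d (2.675) and Fabp3 (3.943). Naive KO replicate 3 was high for H2-T22 (19.04 CPM) and Apoc4 (0.1287, 1 count), and naive KO replicate 1 was low for Fabp3 (0).

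The test of the difference between the KO and WT changes singled out 10 named genes. Their log2 differences, KO change minus WT change, were 4.17 for Cx3cr1, 1.07 for Nfkbia, 3.26 for Igf1, 1.93 for Lpl, 3.70 for Colec12, 1.26 for Glb1, 1.46 for Csf1, 4.72 for Ifnb1, 7.60 for Apoc4 and 8.21 for S100a9. Those of Ifnb1 and Apoc4 are fitted values of genes with few counts, and depend on the prior count. S100a9 had 12.15, 8.672, 1.096 and 4.763 CPM in day 35 WT, against 372.1, 2545, 4919 and 2181 CPM in naive WT, beside 332.6 CPM in day 35 KO and 417.5 CPM in naive KO (means). Its call was lost in 14 of the 16 sets that left out a library, and that of Apoc4 in 12.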

How the results depend on the processing

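The number of genes called between day 35 KO and naive KO was 2960 with median-ratio scaling, 2462 with no filter, 2937 with the i5 index as a block, 2858 in a fit of these groups alone and 3233 in DESeq2. Leaving out 1 library gave 1597 to 3107 (951 to 1760 higher, 646 to 1347 lower). Without replicate 4 of both groups, an alternative chosen after seeing the data, it was 1735 (1069 higher, 666 lower), 1597 of them among the 2970. The genotype difference was less stable, with 119 genes (79 higher, 40 lower) in a fit of the 4 groups alone, 478 (376 higher) in DESeq2, and 7 to 190 (0 to 54 lower) when 1 library was left out. It was 61 with median-ratio scaling, 44 with no filter and 49 with the block. Day 35 KO against day 21 KO gave 2948 to 4055 under the other settings. With the block no named gene lost its call between day 35 KO and naive KO. Of its 49 genotype-difference calls, 42 were among the 51 of the main fit. Of 123 named genes called, 95 kept the call without each of the 8 libraries, and 28 lost it without at least 1. Signs reversed only for S100a9, Chil3 and Igkc among the genes named by the rule, none of them called. Leaving out 1 library gave S100a9 values from -1.80 to 0.05, Chil3 from -2.33 to 0.52 and Igkc from -0.44 to 0.53, and leaving out replicate 4 of both groups gave -2.71 for Chil3 and -0.83 for Igkc. The cause was not tested. Depth limits genes with few counts, such as Ifnb1 and Apoc4 in naive KO (3 and 1 counts).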
